A study of Mus musculus with 4 samples.

Results

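The genes described are 9 mouse enzymes of mitochondrial fatty acid oxidation and ketone body use: *Cpt1a*, *Cpt2*, *Acadvl*, *Acadl*, *Acadm*, *Hadha*, *Hadhb*, *Bdh1* and *Oxct1*. They were chosen by name, after the RNA-seq comparison of *Zfp296* knockout and wild-type embryonic stem cells (ESCs) had shown *Acadl* higher and *Bdh1* lower in the knockout, to set that pair beside enzymes of the same pathways. Their differences are therefore a description of these samples and carry no test. They make up 9 of the 48526 gene rows of the count tables, and all 9 were among the 12883 genes with enough counts to be tested.

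Long-chain fatty acids enter mitochondria as carnitine esters, which CPT1A forms at the outer membrane and CPT2 turns back into acyl-CoA at the inner membrane. Acyl-CoA dehydrogenases that differ in the chain length they prefer then carry out the opening step of each round of beta-oxidation, and the trifunctional protein, built from HADHA and HADHB, completes the round for long chains and releases acetyl-CoA. Ketone bodies are made from acetyl-CoA mainly in liver. Other cells take them up, and BDH1 oxidizes beta-hydroxybutyrate to acetoacetate, to which OXCT1 transfers coenzyme A so that acetyl-CoA can be recovered. Mouse ESCs kept in the naive state draw on both glycolysis and mitochondrial respiration.

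The RNA-seq was from 4 samples labelled as R1 mouse ESCs, 2 biological replicates of wild-type cells (WT) and 2 of *Zfp296* KO clone 2 (KO2). ZFP296 is a zinc finger protein of ESCs, and the study asked what its loss does to the transcriptome. KO2 is 1 monoclonal line, per the methods made from R1 cells with CRISPR/Cas9, a guide RNA to the first exon of *Zfp296* and puromycin selection, so genotype and clone cannot be told apart. Cells of both groups were grown on gelatine with serum, LIF and the inhibitors PD0325901 and CHIR99021, and the labels give them no treatment. WT and KO2 stand below for the libraries so labelled.

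Counts on genes summed to between 2829914 and 4334499 in WT and to between 7437294 and 7470907 in KO2, so depth and genotype cannot be told apart either. Of the 13 ESC marker genes that could be matched, 1 (*Sox2*) was called lower and none higher by edgeR, with 2 called by DESeq2 and 4 at an unadjusted p under 0.05, and their summed level was 6915 to 7182 CPM (counts scaled to the library size) in WT and 6694 to 6881 CPM in KO2. Of the 6 primitive endoderm markers that could be tested *Lamb1* was called lower, and the list summed to 365 to 381 CPM in WT and 315 to 320 CPM in KO2. Of the 10 markers listed, *Gata6*, *Sox17*, *Sox7* and *Foxa2* had 0 to 8 counts in each library. *Gata4*, *Pdgfra* and *Dab2* are also on the list and are not reported here, so these low counts do not show that the lineage is absent. Fibroblast markers summed to 14.5 to 25.3 CPM in WT and 17.2 to 17.9 CPM in KO2, with *Postn*, *Dcn* and *Lum* at 0, and mesoderm and neural markers to 146 to 156 and 179 to 189 CPM. Of these lists 2 and 3 genes were tested, with 0 called by edgeR or DESeq2 and 0 and 1 at an unadjusted p under 0.05. The part of these cells in the results was not tested. For *Zfp296* itself, 31 counts were found in each WT library, against 416 and 282 in the KO2 libraries. The mean level of its RNA was 9.44 ± 2.99 CPM (SD, n = 2) in the former and 45.2 ± 10.6 CPM (SD, n = 2) in the latter, which goes against a loss of its RNA in KO2. *Zfp296* was called higher in KO2 by edgeR (log2 difference 2.31). Gene counts do not show the edited bases, so its RNA level checks nothing about the deletion. The paper reports that its knockout clones were checked by sequencing and by mass spectrometry. Transcripts of 5 Y-linked genes summed to 0 and 0.236 CPM in the WT libraries and to 604 and 690 CPM in the KO2 libraries, and what differs between the lines along with this cannot be told apart from genotype in any result below. That both lines share an origin rests on the labels and methods and was not tested.

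KO2 was compared with WT by edgeR's quasi-likelihood test, and a gene was called where the Benjamini-Hochberg adjusted p over all tested genes was under 0.05. Of the 12883 tested genes 726 were called (5.64%), 335 of them higher in KO2 (2.6%) and 391 lower (3.04%). Of the 9 enzymes 3 were called, *Acadl* higher and *Bdh1* and *Oxct1* lower. As the contrast itself led to the choice of these genes, nothing is read from this count beside the background. Levels are given in CPM, scaled between libraries by the TMM method, when libraries are compared. When genes are compared they are given as RPKM, which is CPM divided by the length of the annotated exons in kilobases. Differences are log2 of KO2 over WT from the fit, with their standard error (SE).

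**Figure D1:**
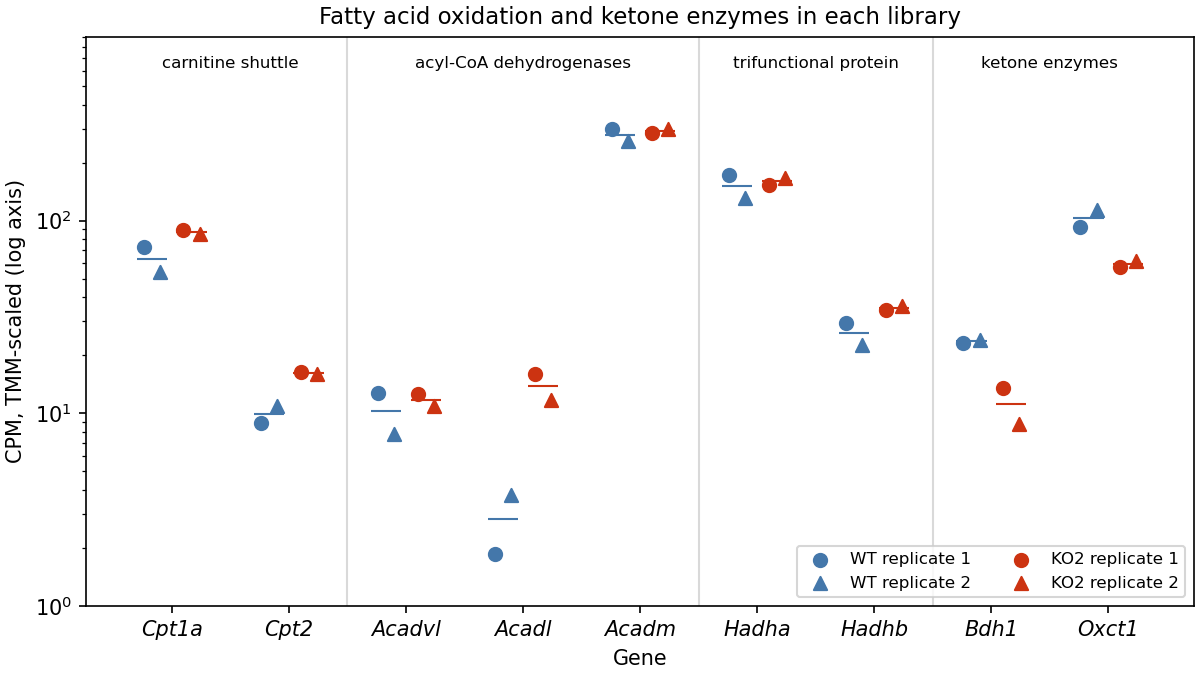
Level of each of the 9 enzymes in each library, in TMM-scaled CPM on a log axis, for WT (blue) and KO2 (red), with replicate 1 as circles, replicate 2 as triangles and a short line at the mean of each group. *Acadl* lies between 1.86 and 3.78 CPM in WT and between 11.8 and 16.0 CPM in KO2, while *Bdh1* and *Oxct1* lie lower in both KO2 libraries than in both WT libraries.

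Per length, *Acadm* had the highest level of the 9 in every library, with 87.8 to 102 RPKM. *Hadha* and *Oxct1* followed in WT with means of 28.4 and 27.8 RPKM and changed places between the WT libraries. In KO2 *Hadha*, at 29.9 RPKM, was followed by *Cpt1a* at 20.3 and *Oxct1* at 16.1 RPKM, in the same order in both libraries. The lower end of the order was not the same in the groups. *Acadl* was the lowest of the 9 in both WT libraries, with 0.929 and 1.89 RPKM, and *Bdh1* was the lowest in both KO2 libraries, with 3.54 and 2.32 RPKM. In KO2 *Acadl* and *Cpt2*, with means of 6.92 and 6.80 RPKM, changed places between the libraries. The ranges of *Cpt2*, *Hadhb* and *Acadvl* in WT, all with means between 3.81 and 4.18 RPKM, overlapped. Lengths are the union of all annotated exons, which overstates the length of a gene with minor long isoforms, such as *Hadhb* with 6595 bases, and thereby understates its RPKM.

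Among the enzymes of the carnitine shuttle, both members were somewhat higher in KO2 without reaching the call. *Cpt1a* (ENSMUSG00000024900, mm9 chr19:3323301-3385732, plus strand), which encodes the malonyl-CoA-sensitive carnitine palmitoyltransferase of liver and most other tissues, had 196 and 228 counts in the WT libraries and 707 and 638 in KO2. In scaled levels these were 73.0 and 53.9 CPM in WT and 89.7 and 85.3 CPM in KO2, and the groups did not overlap. The log2 difference of *Cpt1a* was 0.48 (SE 0.16, 95% interval 0.14 to 0.82). *Cpt2* (ENSMUSG00000028607, mm9 chr4:107576586-107596215, minus strand), the enzyme of the inner membrane, had 24 and 46 counts in the WT libraries and 129 and 119 in KO2. Its levels were 8.94 and 10.9 CPM in WT and 16.4 and 15.9 CPM in KO2, again with no overlap. The log2 difference of *Cpt2* was 0.68 (SE 0.33), and its interval reached from -0.0040 to 1.36. Non-overlap by itself was common, since the groups did not overlap for 48.8% of all tested genes.

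The other listed genes of the shuttle did not share a direction. Of the 6 besides *Cpt1a* and *Cpt2*, 5 were tested and none was called by edgeR, with 2 of all 7 tested shuttle genes at an unadjusted p under 0.05 and 0 called by DESeq2. *Slc25a20*, the carnitine-acylcarnitine carrier of the inner membrane and the most abundant gene of the list in CPM, had 170 and 159 CPM in WT and 129 and 142 CPM in KO2 (log2 difference -0.28, edgeR adjusted p = 0.227). *Cpt1c*, the brain isoform, had 8.94 and 9.22 CPM in WT and 8.37 and 5.88 CPM in KO2 (log2 difference -0.35, edgeR adjusted p = 0.707). *Crat* and *Crot* had positive log2 differences (0.31 and 0.16) and *Slc22a5* a negative one (-0.31). *Cpt1b*, the muscle isoform, had at most 2 counts in any library. The median log2 difference of the 7 tested shuttle genes was 0.16, beside 0.01 for all tested genes.

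Of the 8 acyl-CoA dehydrogenases of fatty acids, *Acadl* alone was called. *Acadl* (ENSMUSG00000026003, mm9 chr1:66877413-66909851, minus strand), the long-chain acyl-CoA dehydrogenase, had 5 and 16 counts in the WT libraries and 126 and 88 in KO2. Its levels were 1.86 and 3.78 CPM in WT, with exact binomial 95% intervals for counting error of 0.605 to 4.35 and 2.16 to 6.14 CPM. In KO2 they were 16.0 and 11.8 CPM, with intervals of 13.3 to 19.0 and 9.43 to 14.5 CPM. Both KO2 libraries were thus above both WT libraries, and the counting intervals of the groups did not meet. The log2 difference of *Acadl* was 2.20 (SE 0.48, 95% interval 1.19 to 3.20), or 4.58-fold, from 2.82 ± 1.36 CPM in WT to 13.9 ± 2.98 CPM in KO2 (SD, n = 2 each). The call was lost without WT replicate 1, the library with 5 counts, where the log2 difference was 1.87, and without a filter on low counts, where it was 2.22.

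The very-long-chain and medium-chain enzymes overlapped between the groups. *Acadvl* (ENSMUSG00000018574, mm9 chr11:69823685-69828913, minus strand), bound to the inner membrane and active on the longest chains, gave 34 and 33 counts in the WT libraries and 99 and 82 in the KO2 libraries. Its levels were 12.7 and 7.80 CPM in WT and 12.6 and 10.96 CPM in KO2. Its groups overlapped, and its log2 difference was 0.26 (SE 0.37, 95% interval -0.51 to 1.03). Exons of *Acadvl* overlap those of *Dvl2* on the opposite strand, and the strand setting of the counting is not given in the sources used here. *Acadm* (ENSMUSG00000062908, mm9 chr3:153585321-153607596, minus strand), the medium-chain enzyme, gave 806 and 1090 counts in the WT libraries and 2251 and 2248 in the KO2 libraries. Its levels were 300.4 and 258 CPM in WT and 285 and 300.5 CPM in KO2. The groups of *Acadm* overlapped, and its log2 difference of 0.07 (SE 0.11) had a 95% interval of -0.17 to 0.31.

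The rest of this enzyme family was listed to show where *Acadl* lies among its relatives. Of the other 5 listed dehydrogenases of fatty acids (*Acads*, *Acad9*, *Acad10*, *Acad11* and *Acad12*), all were tested and none was called, and their log2 differences lay between -0.19 for *Acad10* and 0.35 for *Acad11*. *Acads*, the short-chain enzyme, had 25.7 and 25.5 CPM in WT and 25.4 and 26.2 CPM in KO2. The 4 dehydrogenases of amino acid breakdown (*Acadsb*, *Acad8*, *Ivd* and *Gcdh*) were also tested without a call by edgeR, with 0 at an unadjusted p under 0.05 and 0 called by DESeq2. *Gcdh*, the glutaryl-CoA dehydrogenase, had 71.9 and 56.9 CPM in WT and 66.6 and 70.7 CPM in KO2 (log2 difference 0.10, edgeR adjusted p = 0.795). The family of fatty acid dehydrogenases, *Acadl* included, had a median log2 difference of 0.16.

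No scaling between libraries can change ratios within a library, but these reuse the *Acadl* counts that led to its choice. They restate its difference and add no support to it. *Acadl* counts were 0.620% and 1.47% of *Acadm* counts in the WT libraries and 5.60% and 3.91% in the KO2 libraries. Against *Acadvl* they were 14.7% and 48.5% in WT and 127% and 107% in KO2. *Acadl* counts were thus below those of *Acadvl* in both WT libraries and above them in both KO2 libraries. With 2 libraries a group an exact permutation test cannot pass the threshold, and none was made on the ratios.

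The promoters of *Acadl* and *Acadm* are shown as the 250 bases before the RefSeq start of the gene (GRCm38.p6), since these neighbours in function had unlike differences. Capitals mark matches, on either strand, to GGGCGG, the GC box bound by SP1 and related factors, which 32.7% of 32841 RefSeq promoters of this length hold, and to AGGTCA, the core element of nuclear receptors such as the PPARs, which 14.0% hold. Overlapping matches were counted separately. The other motifs searched, TTAGGG (the telomere repeat unit, in 9.32% of promoters) and a direct repeat of AGGTCA with 1 base between the copies (the arrangement PPARs bind, in 0.0335%; it overlaps the single element), had no match in the 10 windows of the 9 genes. The *Acadl* window (chr1:66863310-66863559, minus strand) had 4 GC boxes, no AGGTCA and 68.0% G and C. The *Acadm* window (chr3:153944644-153944893, minus strand) had 1 AGGTCA, no GC box and 64.0% G and C. A match is a description of the letters only.
Acadl: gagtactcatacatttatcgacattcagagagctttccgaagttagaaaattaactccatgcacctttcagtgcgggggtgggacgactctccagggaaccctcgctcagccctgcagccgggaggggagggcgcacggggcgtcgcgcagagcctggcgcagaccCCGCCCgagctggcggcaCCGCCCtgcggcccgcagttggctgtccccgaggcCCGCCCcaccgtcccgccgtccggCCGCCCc
Acadm: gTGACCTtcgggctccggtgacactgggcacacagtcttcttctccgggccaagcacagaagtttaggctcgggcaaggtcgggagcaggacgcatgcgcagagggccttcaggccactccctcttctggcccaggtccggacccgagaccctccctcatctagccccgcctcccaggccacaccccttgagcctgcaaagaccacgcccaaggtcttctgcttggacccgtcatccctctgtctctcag

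For the trifunctional protein, *Hadha* and *Hadhb* lie head to head, on opposite strands, and both sit on chromosome 5. *Hadha* (ENSMUSG00000025745, mm9 chr5:30444841-30481702, minus strand) encodes the subunit with the hydratase and dehydrogenase activities. It gave 462 and 554 counts in the WT libraries and 1202 and 1247 in the KO2 libraries. Its levels were 172 and 131 CPM in WT and 152 and 167 CPM in KO2. Its groups overlapped, with a log2 difference of 0.08 (SE 0.14, 95% interval -0.21 to 0.37). *Hadhb* (ENSMUSG00000059447, mm9 chr5:30481788-30511133, plus strand), the thiolase subunit, had 79 and 96 counts in the WT libraries and 272 and 270 in KO2. Its levels were 29.4 and 22.7 CPM in WT and 34.5 and 36.1 CPM in KO2. Both KO2 libraries were above both WT libraries for *Hadhb*, and the log2 difference of 0.46 (SE 0.22) had a 95% interval of 0.0023 to 0.92 without reaching the call.

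The ratio of *Hadha* to *Hadhb* counts was close between replicates, at 5.85 and 5.77 in the WT libraries and 4.42 and 4.62 in the KO2 libraries. The KO2 ratios lay below the WT ratios, with a mean 0.778 times that of WT. Exons of *Hadha* overlap those of *Fam59b* on the opposite strand, whose part in the ratio was not tested. The starts of the 2 genes are 85 bases apart in the mm9 annotation and 272 bases apart in RefSeq, so that their promoter windows hold mostly the same bases. The *Hadha* window (RefSeq, GRCm38.p6 chr5:30154981-30155230, minus strand) is shown as this shared stretch, with its GC box in capitals. The *Hadhb* window (chr5:30155003-30155252, plus strand) had 2 GC boxes.
Hadha: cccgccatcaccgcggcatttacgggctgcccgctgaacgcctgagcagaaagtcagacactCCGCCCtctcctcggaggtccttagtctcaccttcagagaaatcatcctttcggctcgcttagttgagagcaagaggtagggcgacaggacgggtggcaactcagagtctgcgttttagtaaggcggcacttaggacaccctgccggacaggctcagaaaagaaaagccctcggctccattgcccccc

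Of the 9 genes of the later steps of mitochondrial beta-oxidation 1 was called. That gene was *Echs1*, the short-chain enoyl-CoA hydratase, which rose from 76.0 and 91.2 CPM in WT to 127 and 134 CPM in KO2 (log2 difference 0.63, SE 0.14, edgeR adjusted p = 0.0101). The call was lost without WT replicate 1 (log2 difference 0.51, edgeR adjusted p = 0.105). Both KO2 libraries were above both WT libraries. *Acaa2*, the mitochondrial thiolase for medium chains, had 93.9 and 89.8 CPM in WT and 119 and 118 CPM in KO2, and was not called (log2 difference 0.37, edgeR adjusted p = 0.124). *Hadh*, the dehydrogenase for shorter chains, had 86.5 and 106 CPM in WT and 113 and 89.4 CPM in KO2 and overlapped between groups. The median log2 difference of the list was 0.35. None of the 3 genes of electron transfer from the dehydrogenases to the respiratory chain (*Etfa*, *Etfb* and *Etfdh*) was called by edgeR, with 0 at an unadjusted p under 0.05 and 0 called by DESeq2. *Etfa* had a log2 difference of 0.12 (edgeR adjusted p = 0.725).

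Both ketone enzymes among the 9 were lower in KO2. *Bdh1* (ENSMUSG00000046598, mm9 chr16:31422366-31458987, plus strand), the mitochondrial beta-hydroxybutyrate dehydrogenase, had 62 and 102 counts in the WT libraries and 106 and 66 in KO2. Its levels were 23.1 and 24.1 CPM in WT, with exact binomial 95% intervals of 17.7 to 29.6 and 19.7 to 29.3 CPM. In KO2 they were 13.4 and 8.82 CPM, with intervals of 11.01 to 16.3 and 6.82 to 11.2 CPM. The WT libraries lay close together, both KO2 libraries were below them, and the KO2 libraries differed more from each other. The log2 difference of *Bdh1* was -1.08 (SE 0.29, 95% interval -1.70 to -0.47), which put WT 2.12-fold above KO2, at 23.6 ± 0.704 and 11.1 ± 3.27 CPM (SD, n = 2 each). The call was lost without WT replicate 1, without WT replicate 2 and without KO2 replicate 2, where the log2 difference was -1.11, -1.05 and -0.82. It was also lost with DESeq2 (-1.09), with library sizes from the ERCC spike-in RNAs (-1.03) and without a filter on low counts (-1.05), 6 of 11 alternatives in all.

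*Oxct1* (ENSMUSG00000022186, mm9 chr15:3976383-4105344, plus strand), the mitochondrial CoA transferase that commits acetoacetate to use as fuel, had 249 and 479 counts in the WT libraries and 455 and 462 in KO2. Its levels were 92.8 and 113 CPM in WT and 57.7 and 61.8 CPM in KO2, and the groups did not overlap. The log2 difference of *Oxct1* was -0.79 (SE 0.15, 95% interval -1.11 to -0.48), with WT 1.73-fold above KO2. It was not called without WT replicate 2 (-0.64), without a filter on low counts (-0.77) or with ERCC spike-in library sizes (-0.72). Exons of *Oxct1* overlap those of the noncoding gene *BC037032* on the opposite strand. *Bdh1* counts were 24.9% and 21.3% of *Oxct1* counts in the WT libraries and 23.3% and 14.3% in the KO2 libraries, so this ratio overlapped between groups.

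**Figure D2:**
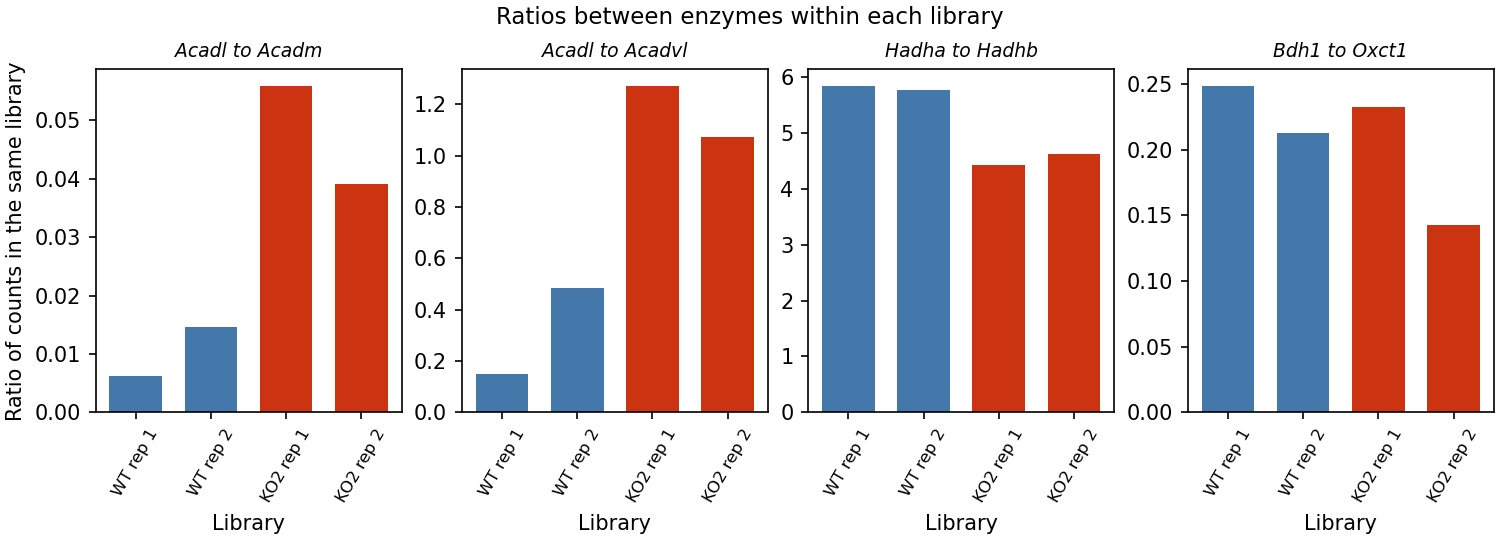
Ratio of the counts of 2 enzymes within each library, as bars from 0, for *Acadl* to *Acadm*, *Acadl* to *Acadvl*, *Hadha* to *Hadhb* and *Bdh1* to *Oxct1*, with WT in blue and KO2 in red and a separate axis for each ratio. Both *Acadl* ratios are higher and the *Hadha* to *Hadhb* ratio is lower in both KO2 libraries than in both WT libraries, while *Bdh1* to *Oxct1* overlaps.

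RefSeq lists a pair of starts for *Bdh1*, 6455 bases apart, and a single start for *Oxct1*. Their windows are shown because these genes were the called enzymes of lower level. None of the motifs searched was found in the *Bdh1* windows (GRCm38.p6 chr16:31422047-31422296 with 49.6% G and C, and chr16:31428503-31428752 with 60.8%, both plus strand) or in that of *Oxct1* (chr15:4026178-4026427, plus strand, 52.0%). The median over all RefSeq promoters was 52.4% G and C. GC boxes were found in 5 of the 9 genes, *Acadl*, *Hadha*, *Hadhb*, *Cpt1a* and *Cpt2*, beside 32.7% of all RefSeq promoters. AGGTCA had 1 match each in *Acadm*, *Acadvl* and *Cpt1a*, beside 14.0% of all RefSeq promoters. These matches say only that the letters are in those windows.
Bdh1, upstream start: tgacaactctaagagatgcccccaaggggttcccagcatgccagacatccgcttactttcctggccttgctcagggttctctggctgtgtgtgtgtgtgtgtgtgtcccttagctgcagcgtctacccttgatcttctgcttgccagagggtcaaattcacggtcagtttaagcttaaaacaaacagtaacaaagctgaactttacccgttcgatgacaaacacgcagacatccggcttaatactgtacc
Bdh1, downstream start: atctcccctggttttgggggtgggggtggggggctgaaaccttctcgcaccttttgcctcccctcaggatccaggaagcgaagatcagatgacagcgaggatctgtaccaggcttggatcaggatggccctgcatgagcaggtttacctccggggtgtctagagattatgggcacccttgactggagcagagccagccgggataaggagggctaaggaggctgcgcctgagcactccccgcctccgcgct
Oxct1: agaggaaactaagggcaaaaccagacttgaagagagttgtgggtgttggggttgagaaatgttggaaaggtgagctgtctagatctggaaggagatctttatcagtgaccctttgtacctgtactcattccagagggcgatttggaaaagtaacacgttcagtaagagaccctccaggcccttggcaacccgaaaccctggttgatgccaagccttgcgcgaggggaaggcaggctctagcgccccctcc

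The genes around *Bdh1* and *Oxct1* in ketone metabolism were few in number and mixed. Of the 6 listed genes of ketone body synthesis 3 could be tested, *Bdh1* among them. *Acat1*, the acetoacetyl-CoA thiolase that acts in synthesis and use, had 41.0 and 29.8 CPM in WT and 25.6 and 25.7 CPM in KO2. It lay lower in both KO2 libraries but was not called (log2 difference -0.44, edgeR adjusted p = 0.283). Of the transporters of monocarboxylates, which carry ketone bodies, lactate or pyruvate, *Slc16a3* fell from 57.8 and 72.8 CPM in WT to 37.3 and 29.8 CPM in KO2 (log2 difference -0.97, SE 0.18, edgeR adjusted p = 0.00338). *Slc16a3* is known above all as a lactate exporter. *Slc16a1*, the most abundant of them in CPM, had 188 and 217 CPM in WT and 162 and 165 CPM in KO2 (log2 difference -0.31, edgeR adjusted p = 0.162). *Slc16a6* had 8.57 and 15.4 CPM in WT and 23.3 and 25.3 CPM in KO2 (log2 difference 0.96, edgeR adjusted p = 0.0676), so the direction was not common to the transporters. Of the 7 tested genes of ketone body use and transport 3 were called lower and none higher, *Bdh1* and *Oxct1* among the 3, with a median log2 difference of -0.44. That count holds genes the comparison was built on.

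Upstream of the carnitine shuttle, genes of fatty acid binding and activation moved in both directions. The fatty acid binding proteins *Fabp3* and *Fabp5*, cytosolic carriers, rose in KO2. *Fabp3* had 44.0 and 25.99 CPM in WT and 65.6 and 62.4 CPM in KO2 (log2 difference 0.91, SE 0.21, edgeR adjusted p = 0.0129). *Fabp5* had 51.8 and 39.5 CPM in WT and 66.2 and 79.9 CPM in KO2 (log2 difference 0.70, SE 0.18, edgeR adjusted p = 0.0263). The long-chain acyl-CoA synthetases *Acsl1* and *Acsl3*, which activate fatty acids for oxidation or lipid synthesis, fell. *Acsl1* had 120 and 128 CPM in WT and 84.1 and 78.2 CPM in KO2 (log2 difference -0.61, SE 0.13, edgeR adjusted p = 0.0102). *Acsl3* had 284 and 265 CPM in WT and 173 and 195 CPM in KO2 (log2 difference -0.58, SE 0.12, edgeR adjusted p = 0.00554). *Acsl4* had 60.7 and 65.2 CPM in WT and 40.8 and 48.0 CPM in KO2 and was not called (log2 difference -0.51, edgeR adjusted p = 0.0884). None of these groups overlapped. In all, 10 of the 12 listed genes were tested, 2 were called higher and 2 lower, and the median log2 difference was -0.06.

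Beta-oxidation in peroxisomes, which shortens very long chains, had 1 call among 10 tested genes. *Acaa1a*, a peroxisomal thiolase, rose from 22.4 and 32.1 CPM in WT to 54.0 and 46.7 CPM in KO2 (log2 difference 0.86, SE 0.21, edgeR adjusted p = 0.0193). Its near relative *Acaa1b* had 4 and 5 counts in the WT libraries and 23 and 14 in KO2, and as reads of such similar genes may be split or lost in counting, both values are uncertain. *Abcd3*, a peroxisomal fatty acid transporter, had 201 and 177 CPM in WT and 146 and 153 CPM in KO2 (log2 difference -0.33, edgeR adjusted p = 0.13). The median log2 difference of the list was 0.01.

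Over the 9 lists of these pathways, with the 9 enzymes left out, 50 of 61 genes were tested, 4 were called higher and 3 lower, and the median log2 difference was 0.07. Of the 11 that were not tested, 4 had no count in any library. These 7 calls of 50 stand beside 5.64% called among all tested genes, 2.6% higher and 3.04% lower. DESeq2 called 5 of the 50, *Fabp3* and *Echs1* higher and *Acsl1*, *Acsl3* and *Slc16a3* lower. With library sizes taken from the ERCC spike-in RNAs none of the 7 kept its call, although each kept its direction. Without a filter on low counts none was called either. Each of the 7 also lost its call when 1 library was left out. This was WT replicate 1 for *Echs1*, *Acaa1a* and *Acsl3* and WT replicate 2 for *Fabp3*, *Fabp5*, *Acsl1* and *Slc16a3*. *Acaa1a* and *Acsl3* also lost it without KO2 replicate 1, and *Fabp5* without KO2 replicate 2.

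**Figure D3:**
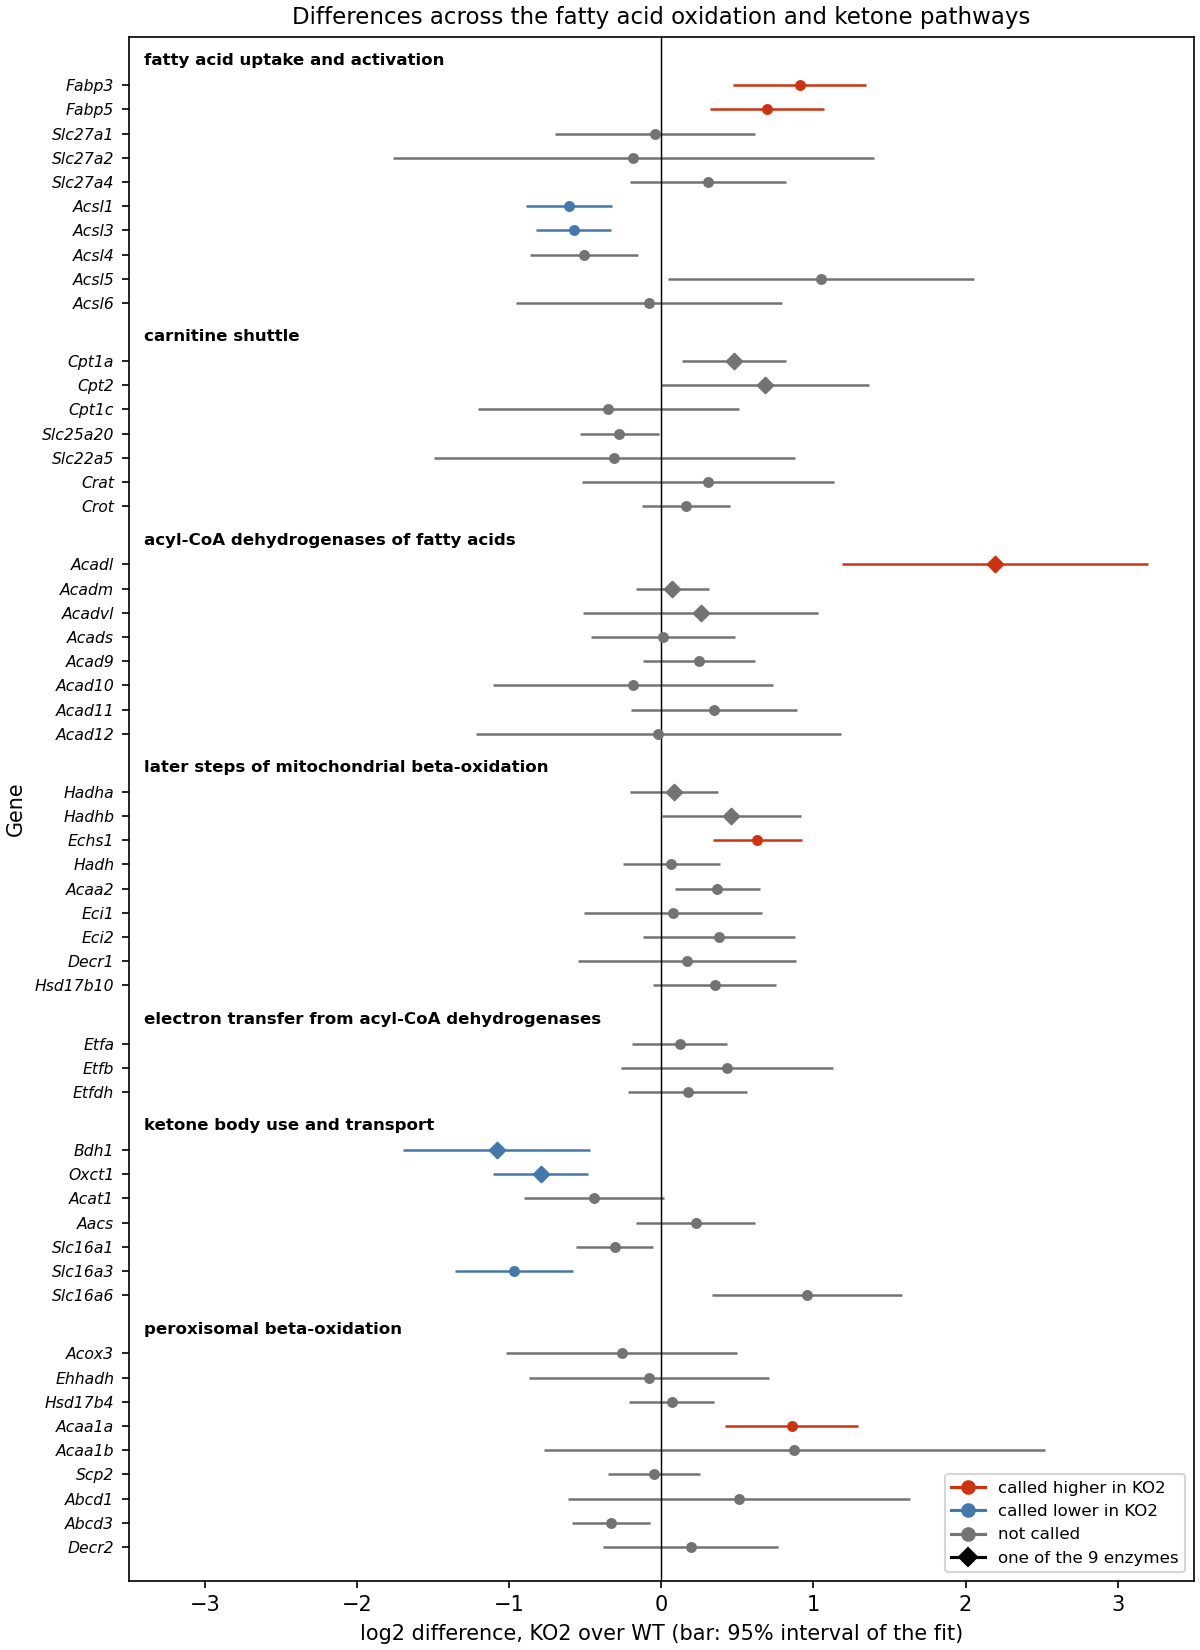
Log2 difference of KO2 over WT with its 95% interval for tested genes of the fatty acid oxidation and ketone lists, grouped by pathway step, red where called higher, blue where called lower and grey where not called, with the 9 enzymes as diamonds. *Acadl* stands at 2.20 while the other fatty acid dehydrogenases lie between -0.19 and 0.35, and *Bdh1*, *Oxct1* and *Slc16a3* lie at -1.08, -0.79 and -0.97.

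Regulators known to act on these enzymes were at few counts or not called, apart from *Pprc1*. *Ppara*, the nuclear receptor that drives fatty acid oxidation genes in fasting liver, had 0 and 0 counts in the WT libraries and 7 and 4 in KO2, too few to be tested. *Pparg* and the coactivator *Ppargc1a* had no count in any library. *Ppard* had 5.22 and 4.73 CPM in WT and 4.44 and 5.61 CPM in KO2 (log2 difference 0.03, edgeR adjusted p = 0.986). *Esrra* had 10.1 and 10.6 CPM in WT and 10.7 and 12.2 CPM in KO2 (log2 difference 0.13, edgeR adjusted p = 0.887). *Esrrb*, an orphan receptor of the pluripotency network, had 221 and 254 CPM in WT and 263 and 208 CPM in KO2 (log2 difference -0.01, edgeR adjusted p = 0.973). The coactivator *Pprc1*, a relative of PGC-1, rose from 64.1 and 57.4 CPM to 105 and 93.6 CPM (log2 difference 0.71, SE 0.15, edgeR adjusted p = 0.00706), and it was the only one called of the 6 tested genes of this list.

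Pathways next to fatty acid oxidation gave no call. Of 7 tested PPAR target genes outside the oxidation enzymes none was called by edgeR, with 1 at an unadjusted p under 0.05 and 0 called by DESeq2. *Plin2*, a lipid droplet coat protein and the most abundant of them in CPM, had 59.6 and 48.0 CPM in WT and 67.6 and 62.3 CPM in KO2 (log2 difference 0.28, edgeR adjusted p = 0.376). None of the 9 genes of malonyl-CoA and fatty acid synthesis was called by edgeR, with 1 at an unadjusted p under 0.05 and 0 called by DESeq2. *Scd2*, a stearoyl-CoA desaturase, had 527 and 738 CPM in WT and 603 and 430.0 CPM in KO2 (log2 difference -0.30, edgeR adjusted p = 0.294). None of 17 enzymes of the tricarboxylic acid cycle, which takes up the acetyl-CoA, was called by edgeR, with 3 at an unadjusted p under 0.05 and 0 called by DESeq2. The median log2 difference of the cycle was 0.10.

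The tested genes whose profiles over the 4 libraries were nearest to that of *Acadl*, by Euclidean distance of log2(CPM + 1) centred on each gene's mean, were *Casp6* (0.0861), *Cmbl* (0.166) and *Sema4c* (0.173). *Casp6* had 0.745 and 2.13 CPM in WT and 10.1 and 7.08 CPM in KO2. Nearest to *Bdh1* were a gene without a symbol here (ENSMUSG00000100215, 0.0904), *Accsl* (0.108) and *Ece1* (0.128). *Ece1* had 20.5 and 21.3 CPM in WT and 10.5 and 7.35 CPM in KO2. With 4 libraries in 2 groups such likeness is a description only.

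Across 11 alternative settings of the normalization, filter, test and samples, the direction of *Acadl*, *Bdh1*, *Oxct1*, *Cpt1a*, *Cpt2* and *Hadhb* was kept wherever they were fitted, which for *Acadl* was in 10. *Acadl* was called in 8 of the 10, *Bdh1* in 5 of 11 and *Oxct1* in 8 of 11, and the other 6 enzymes in none. When WT replicate 2 was left out, *Acadm*, *Acadvl* and *Hadha* lay slightly below WT. All these refits reuse the same 4 libraries, so calls of enzymes chosen from them add no support. The settings that left out no replicate called between 0.24% (no filter) and 7.34% (replicate block) of the genes each tested.

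**Figure D4:**
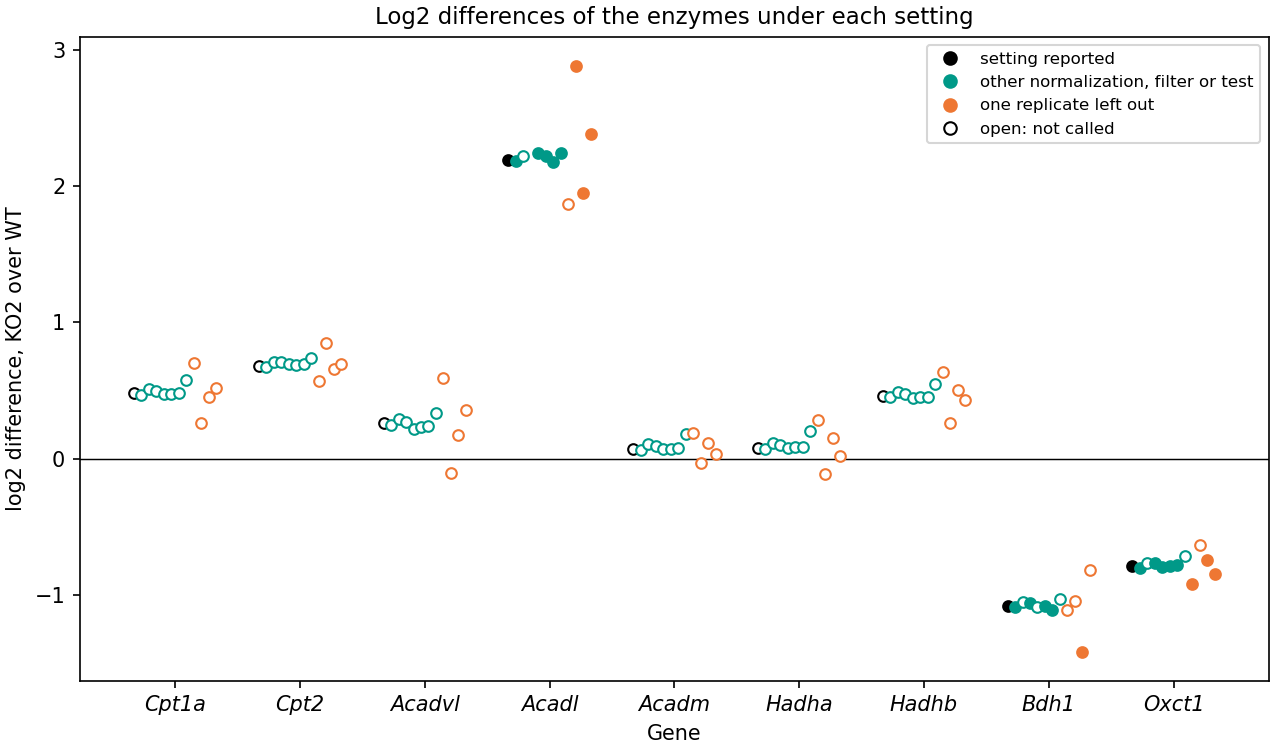
Log2 difference of KO2 over WT for each of the 9 enzymes as reported (black), under another normalization, filter or test (green) and with 1 replicate left out (orange), with open circles where the gene was not called. *Acadl* stays between 1.87 and 2.88 and *Bdh1* between -1.42 and -0.82, and for each enzyme the values with 1 replicate left out span a wider range than those of the other settings.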

How the data were processed

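RNA was sequenced from 2 WT and 2 KO2 samples. Per the methods of the study, Ribo-Zero removed the ribosomal RNA before strand-specific library preparation, hisat2 placed the reads on mm9 and HTSeq counted them per gene. The submitters' processing notes also name DESeq2. Tool versions, the gene annotation and the HTSeq options are not given in the sources used here. The authors deposited raw counts for each replicate, unpooled. Rows that name no gene, which hold reads outside genes, ambiguous or not uniquely mapped, took 52.9% to 58.8% of each library and were left out with the 92 ERCC rows. Symbols and mm9 coordinates were found for 32782 of 48526 gene rows.

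Genes were kept by filterByExpr (minimum count 10, minimum total 15) and tested with the quasi-likelihood method of edgeR 4.0.16 (limma 3.58.1, R 4.3.3) with TMM factors, group as the only term and Benjamini-Hochberg adjustment at 0.05. The p-values set a difference against the spread between replicates within these groups, with information shared across genes. KO2 is a single clone, so they do not cover variation between clones. SE is the log2 difference divided by the root of the F statistic. A count of 3 equals 1.12, 0.709, 0.380 and 0.401 CPM in WT replicates 1 and 2 and KO2 replicates 1 and 2, and intervals from counts cover counting error only. Replicates differed by more than sampling noise (chi-square per gene 5.92 in WT and 21.3 in KO2). The alternatives were RLE normalization, no filter, 10 counts or more in each library, the older quasi-likelihood method, DESeq2 1.42.0, the replicate block, ERCC library sizes and leaving out each replicate. Promoters are RefSeq's (GRCm38.p6), matched for 9 of 9 genes, and were not compared with mm9 positions.

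The 9 enzymes, the pathway lists and the tests were chosen with earlier results of these data known. Named are the 9 enzymes, each called gene of a list, its uncalled gene of highest mean CPM, the regulators given, *Zfp296* and the 3 nearest profiles. *Cpt1b*, *Cpt1c*, *Acads*, *Acad10*, *Acad11*, *Acaa2*, *Hadh*, *Slc16a6*, *Acsl4* and *Acaa1b* were added after their values were seen, to show the steps beside the 9. So were *Crat*, *Crot* and *Slc22a5*. Some genes of the lists, which enter the counts and medians, are not reported here by name.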

Additional observations from a re-analysis of the deposited data

How the results depend on the processing

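Without a filter on low counts, none of the 9 enzymes and 0 other pathway genes in either direction were called, and of the 25397 genes then fitted 61 were called. The log2 difference was then 2.22 for *Acadl*, -1.05 for *Bdh1* and -0.77 for *Oxct1*. With ERCC library sizes 1 enzyme (*Acadl*) was called, 0 other pathway genes were called higher and 0 lower, *Bdh1* was at -1.03 and *Oxct1* at -0.72, and 163 genes were called in all. DESeq2 called 2 other pathway genes higher and did not call *Bdh1* (-1.09), and called 456 genes in all. The cause was not tested for any of these settings. Requiring 10 counts or more in each library removed *Acadl*, which has 5 counts in WT replicate 1.

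With 1 replicate left out, the lone library of its group is assumed to vary like the other group. The number of enzymes called then ranged from 1 to 3, that of other pathway genes called higher from 2 to 3 and lower from 1 to 3, and 270 to 691 genes were called in all. Without WT replicate 1 *Oxct1* alone of the 9 was called, and without WT replicate 2 *Acadl* alone. The log2 difference ranged from 1.87 to 2.88 for *Acadl*, from -1.42 to -0.82 for *Bdh1* and from -0.92 to -0.64 for *Oxct1*. Without WT replicate 2, *Acadm* (-0.036), *Acadvl* (-0.107) and *Hadha* (-0.110) lay below WT. Over the same fits they ranged up to 0.186, 0.592 and 0.285, all without WT replicate 1. Without KO2 replicate 2, the *Bdh1* to *Oxct1* ratio of KO2 was 1.01 times that of WT in place of 0.814, in a range of 0.618 to 1.01.

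The correlation of same-numbered deviations was -0.0166, which cannot by itself settle whether the replicate numbers pair the samples. With the replicate block 3 enzymes were called, as without it, 5 other pathway genes higher (*Slc16a6* added) and 3 lower, and 946 genes in all. RLE normalization and the older quasi-likelihood method left all 3 enzyme calls and the 7 others in place, and called 803 and 656 genes in all. Values near the level of 3 counts, such as *Acadl* in WT replicate 1, are limited by depth.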
